A study of Mus musculus with 6 samples.

Results

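The 37 genes described here encode the aminoacyl-tRNA synthetases of the cytosol and the mitochondrion, with 2 scaffold proteins of the cytosolic multisynthetase complex. They were taken by symbol from a fixed list of 20 cytosolic synthetase genes, 15 mitochondrial synthetase genes whose symbols end in 2, and the scaffold genes Aimp1 and Aimp2. All 37 were found among the 23284 genes of the count tables, and all 37 had enough counts to be tested.

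The libraries came from pancreatic islets of mice aged 12 weeks, of the strain given in the labels as C56BL/J. In the knockout group (libraries 4, 5 and 6) both copies of Neurod1, a transcription factor of endocrine cells, carried loxP sites and the Rip-Cre transgene was present, in which the rat insulin promoter drives Cre recombinase. In the control group (libraries 7, 10 and 16) both copies carried loxP sites and no Cre was present. Controls without Cre cannot tell an effect of the transgene from that of the Neurod1 deletion, and no label tells if a library holds 1 animal or several. Other islet cells keep Neurod1 by design, and the RNA is of whole islets.

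Each synthetase joins one amino acid to its tRNA, the step that supplies the ribosome with charged tRNA. The cytosolic and mitochondrial enzymes are both encoded in the nucleus, mostly by separate genes. Gars and Kars each encode both forms, Eprs encodes 1 protein that charges with glutamate and with proline, and mitochondrial glutamine tRNA is made from a product of Ears2 with no separate glutaminyl enzyme. Many cytosolic synthetase genes are known targets of Atf4, a transcription factor that is translated when the initiation factor eIF2 is phosphorylated, as happens when amino acids are short or the endoplasmic reticulum is stressed. Atf4 binds C/EBP-ATF response elements, and beta cells, which make large amounts of proinsulin, depend on this pathway.

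Total counts ranged from 12206393 to 20412435 per library. Neurod1 stood at 28.4, 29.8 and 31.3 counts per 1e+06 counts (CPM) in knockout libraries 4, 5 and 6 and at 198, 177 and 141 CPM in control libraries 7, 10 and 16. Markers of 9 cell types were read in each library. The summed level of 30 acinar markers ranged from 16328 to 58512 CPM in control and from 5807 to 17171 CPM in knockout libraries, and none of the 30 was at 0 in all libraries. Of the 30, 3 were called lower and 0 higher, with a median log2 fold change of -1.82. Acinar transcripts took 5.78%, 4.93% and 1.65% of the counts of control libraries 7, 10 and 16, while knockout libraries 4, 5 and 6 gave them 0.574%, 1.70% and 1.26%. The 12 beta cell markers summed to between 175408 and 193607 CPM in control and between 134016 and 150954 CPM in knockout libraries. Singly, 5 of those 12 were called higher and 3 lower, with a median log2 fold change of 0.27. Over all genes tested, 11.8% were called higher and 12.6% lower. Summed endothelial markers ranged from 1119 to 1129 CPM in the controls and from 715 to 844 CPM in the knockouts, with 10 of 12 called lower. Alpha cell markers summed to 37896 to 51006 CPM and 26787 to 35512 CPM (2 of 8 lower), and stellate cell and fibroblast markers to 936 to 1284 CPM and 654 to 867 CPM (4 of 10 lower), in controls and knockouts. The sums of the delta and PP cell, leukocyte, duct and Schwann cell or neuron markers overlapped between the groups. Singly, 4 of 8 duct markers were called lower and 1 higher, and 2 of 8 Schwann cell or neuron markers lower and 2 higher. Of 6 delta and PP cell markers 1 was lower and 1 higher, and of 11 leukocyte markers 1 was lower. In bulk islets, fewer cells of a type and less RNA per cell cannot be told apart.

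Before any change, the cytosolic and mitochondrial enzymes stood at different levels. Per kilobase of the longest coding transcript in GENCODE M21, the 20 cytosolic genes lay between 19.8 and 90.8 CPM per kilobase in control islets, with a median of 29.8. The 14 mitochondrial genes other than Lars2 lay between 0.407 and 16.3 CPM per kilobase, with a median of 7.06. On this scale each was below every cytosolic gene, which depends on the transcript length used. In CPM not divided by length the classes overlapped. Iars2 (61.5) and Hars2 (46.5) had higher control means than Hars (40.2) and Farsa (38.1). Gars, the glycine enzyme of both compartments, was the highest cytosolic gene at 90.8 ± 5.84 CPM per kilobase (SD, n = 3), followed by Nars, the asparagine enzyme, at 65.4 ± 8.36. Aimp1 stood at 28.1 ± 1.09 and Aimp2 at 12.8 ± 1.61 CPM per kilobase. Lars2, the mitochondrial leucine enzyme, was listed at 509 ± 225 CPM per kilobase and is treated on its own.

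The comparison asked which synthetase transcripts differ in islets whose beta cells lack Neurod1. Among the 20 cytosolic genes, 8 fell (Aars, Cars, Gars, Iars, Mars, Sars, Tars and Yars), 3 rose (Dars, Hars and Wars) and 9 missed the threshold, an adjusted p of 0.05 in the quasi-likelihood F test of edgeR. The falls ran from -0.32 to -0.77 and the rises from 0.35 to 0.70 on the log2 scale. Over all 14770 genes tested, 24.4% were called, 11.8% higher and 12.6% lower, against 55% of the cytosolic genes, 15% higher and 40% lower. The cytosolic genes were also more abundant, with a median of 80.4 CPM and a median SE of 0.09. Over all genes these were 20.8 CPM and 0.12. The part of abundance in the share called was not tested. The median log2 fold change of the cytosolic genes was 0.01, beside -0.01 over all genes, since the list held falls and rises. The median size of the change, whatever its direction, was 0.33 for the cytosolic genes and 0.24 for all genes.

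Among the 15 mitochondrial genes, 2 fell (Aars2 and Hars2), 1 rose (Rars2) and 12 did not pass, which is 20% called. Their median log2 fold change was 0.03, and the median size of the change was 0.22. Neither Aimp1 nor Aimp2 passed by edgeR's test, and neither had an unadjusted p under 0.05 in that test or in the authors' deposited table. The difference between the cytosolic and the mitochondrial counts was not itself tested. The mitochondrial genes had a median of 17.2 CPM and a median SE of 0.11, so the 2 classes also differed in abundance. In the authors' deposited table, 3 cytosolic genes were higher and 8 lower at an adjusted p under 0.05, and all 11 were the genes called here. No mitochondrial gene passed in the authors' deposited table, where DESeq gave 2 of the 15 an unadjusted p under 0.05.

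**Figure D1:**
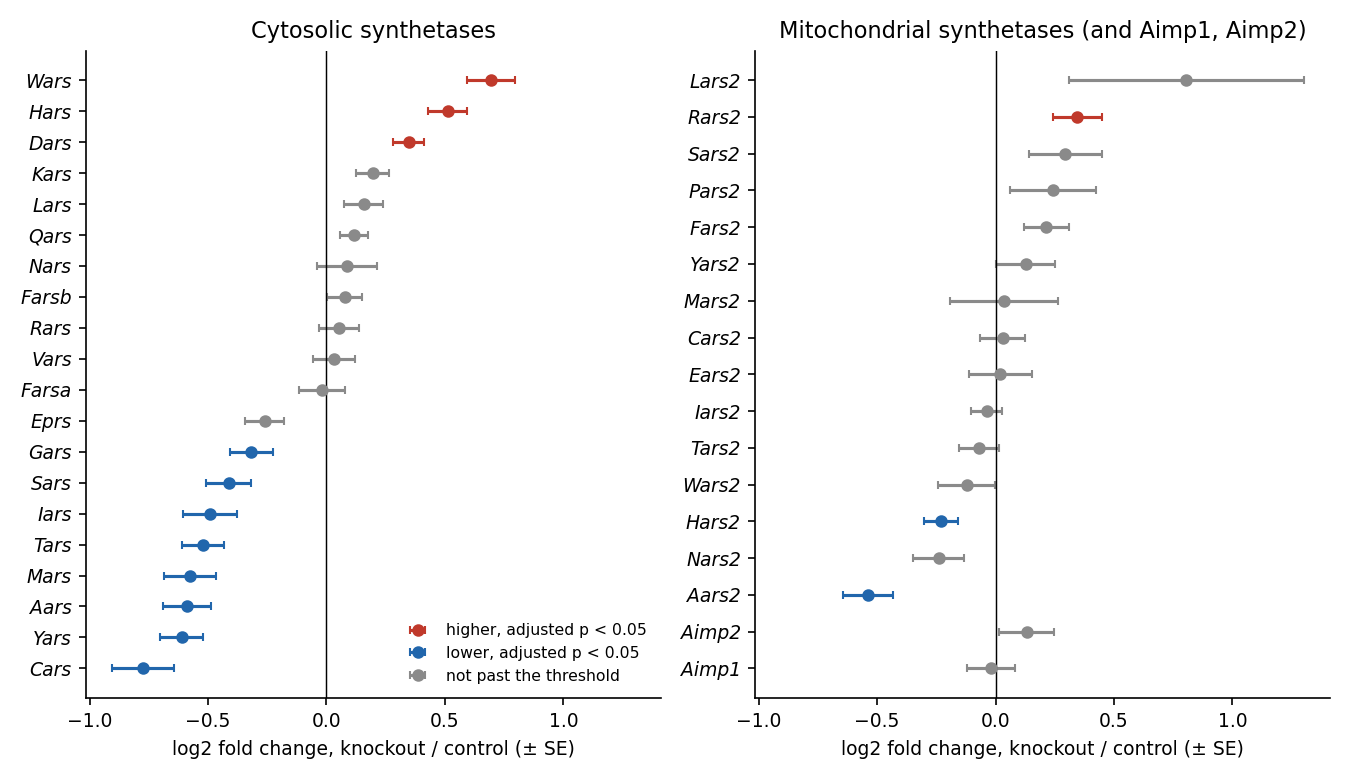
Log2 fold change of knockout over control for the 20 cytosolic genes (left) and for the 15 mitochondrial genes with Aimp1 and Aimp2 (right); points are edgeR estimates, bars are the SE, and colour marks the call at an adjusted p of 0.05. The 8 cytosolic falls form a block from -0.32 (Gars) to -0.77 (Cars), while 12 of the 15 mitochondrial genes are grey.

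The largest fall was in Cars, the cysteine enzyme. It had 111, 91.1 and 86.9 CPM in control libraries 7, 10 and 16 and 65.2, 48.0 and 55.7 CPM in knockout libraries 4, 5 and 6. Every knockout library lay below every control library, and the log2 fold change was -0.77 (SE 0.13, adjusted p = 0.00469 by edgeR). Yars, the tyrosine enzyme, had 97.1, 90.1 and 87.1 CPM in the controls and 63.9, 63.4 and 52.1 CPM in the knockouts, again without overlap. Its log2 fold change was -0.61 (SE 0.09, adjusted p = 0.00206 by edgeR), a 1.53-fold fall.

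Aars, which charges with alanine, had 210, 173 and 162 CPM in the controls and 127, 121 and 115 CPM in the knockouts. The groups were apart, and the difference was -0.59 (SE 0.10, adjusted p = 0.00414 by edgeR). Mars, the methionine enzyme, had 114, 89.2 and 90.9 CPM in the controls and 72.0, 63.5 and 61.8 CPM in the knockouts, a log2 fold change of -0.58 (SE 0.11). Control library 7 was the highest of the controls for both genes. Mars shares 68 exonic bases with Ddit3 on the opposite strand, in GENCODE M21. Ddit3 itself differed by -0.29 (SE 0.12, adjusted p = 0.122 by edgeR), and whether the authors' counting used strand is not stated by any label or header. Aars shares 1326 exonic bases with Exosc6 on the same strand.

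Tars, the threonine enzyme, stood at 84.0, 77.7 and 76.2 CPM in the controls and at 61.6, 49.3 and 54.9 CPM in the knockouts (log2 fold change -0.52, SE 0.09, adjusted p = 0.00405 by edgeR). Iars, the isoleucine enzyme, stood at 121, 105 and 90.8 CPM in the controls and at 83.7, 71.4 and 70.4 CPM in the knockouts (-0.49, SE 0.12). Its control libraries spread more widely than those of Tars, and its groups did not overlap. Sars, the serine enzyme, had 205, 175 and 185 CPM in the controls and 159, 130 and 136 CPM in the knockouts (-0.41, SE 0.10). Gars had 232, 211 and 205 CPM in the controls and 177, 188 and 155 CPM in the knockouts (-0.32, SE 0.09, adjusted p = 0.0338 by edgeR), the smallest of the 8 falls.

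Of the 3 cytosolic genes that rose, Wars, the tryptophan enzyme and a gene known to respond to interferon gamma, had 103, 130 and 104 CPM in control libraries 7, 10 and 16 and 173, 194 and 180 CPM in knockout libraries 4, 5 and 6. All knockout libraries lay above all controls, and the log2 fold change was 0.70 (SE 0.10, adjusted p = 0.00189 by edgeR), a 1.62-fold rise. Hars, the histidine enzyme, had 43.1, 37.1 and 40.6 CPM in the controls and 60.1, 58.8 and 53.2 CPM in the knockouts (0.51, SE 0.08, adjusted p = 0.00294 by edgeR). Dars, the aspartate enzyme, had 49.99, 46.8 and 48.3 CPM in the controls and 60.3, 64.3 and 60.1 CPM in the knockouts (0.35, SE 0.07, adjusted p = 0.00597 by edgeR).

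Among the 9 cytosolic genes that did not pass, log2 fold changes ran from -0.26 (Eprs) to 0.20 (Kars) and adjusted p from 0.0516 to 0.904 by edgeR. Eprs, the most abundant of them, had 230, 203 and 192 CPM in the controls and 182, 170 and 170 CPM in the knockouts, with no overlap (SE 0.08). Its adjusted p of 0.0516 passed the threshold (as low as 0.0304) under DESeq2, under upper-quartile or no scaling factors and on leaving out control 16. Nars, the next most abundant, had 201, 155 and 183 CPM in the controls and 222, 183 and 168 CPM in the knockouts, and the groups overlapped (0.09, SE 0.13). Farsa and Farsb, which encode both subunits of the phenylalanine enzyme, differed by -0.02 and 0.08. Kars, the lysine enzyme of both compartments, Lars and Qars, for leucine and glutamine, had values of 0.20, 0.16 and 0.12, and Rars and Vars, for arginine and valine, of 0.05 and 0.03. Qars, shown after its values were seen, hardly varied among the knockouts, with 78.7, 78.7 and 78.6 CPM in the knockouts and 73.1, 70.4 and 74.2 CPM in the controls.

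**Figure D2:**
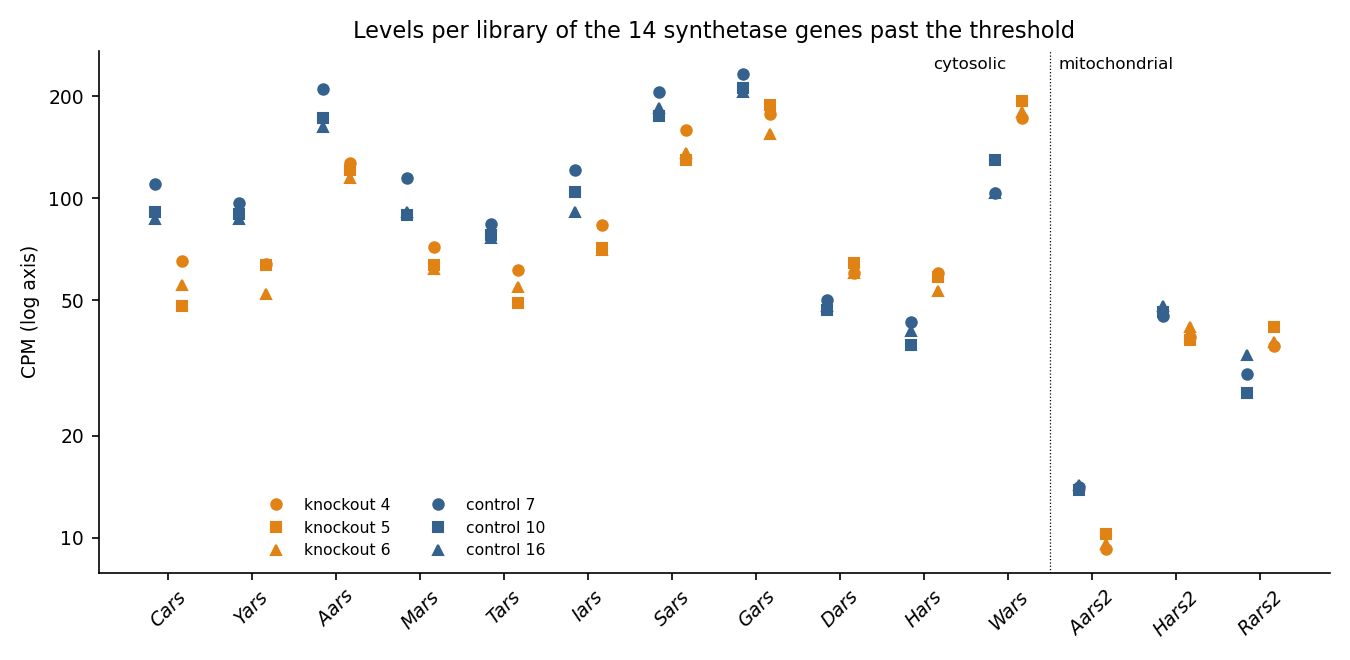
CPM on a log axis in each of the 6 libraries for the 14 synthetase genes past the threshold, controls in blue and knockouts in orange, with a marker shape for each library. For all 14 genes, picked by the test on these same libraries, the 3 orange points lie wholly above or wholly below the 3 blue points.

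Control and knockout libraries did not overlap for any of the 14 members past the threshold. Those members were picked by the test on the same libraries, so this is no separate support. In all, 19 of the 37 members had groups apart, 7 higher and 12 lower, beside 42% of all genes tested (20% higher and 22% lower). Within a group the members varied about as much as other genes. The median coefficient of variation was 7.83% in control and 7.49% in knockout libraries for the cytosolic genes and 8.47% and 7.75% for the mitochondrial genes, beside 9.12% and 9.74% over all genes.

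The calls differed in how far they held. Dars, Tars, Wars and Yars passed under each of the 14 alternatives run, with a highest adjusted p of 0.0448 for Dars by edgeR. Aars, Cars, Mars, Hars and Aars2 missed the threshold only when the acinar marker level was a covariate in the fit, with adjusted p of 0.0995, 0.0776, 0.108, 0.0514 and 0.0875 by edgeR. Sars missed it with the covariate and when control 7 was left out (adjusted p up to 0.0676 by edgeR). Iars missed it with the covariate and on leaving out knockout 5, knockout 6 or control 10 (up to 0.242). Gars missed it with the covariate, with no filter on low counts and on leaving out knockout 4, knockout 6, control 7 or control 10 (up to 0.329). With the covariate all 14 members kept their direction, the falls running from -0.22 to -0.80 and the rises from 0.27 to 0.85, and 4 were still called. The acinar share differed between the groups, so this covariate also takes up part of the genotype difference. Control library 16 and knockout library 5 had like acinar shares of 1.65% and 1.70%. Between those 2 libraries the 8 fallen cytosolic genes differed by -0.12 to -0.86 on the log2 scale. The 3 risen cytosolic genes differed by 0.41 to 0.90, and neither range has a replicate. The groups of these genes do not overlap, so any control and knockout library would differ in the called direction. The directions are therefore no separate support, and the part of acinar RNA was not tested by this pair.

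The promoters of the members were searched for the core of the C/EBP-ATF response element, TGATGNAA, on both strands (TTNCATCA on the other). The windows ran from 250 bases before to 50 after the start, from RefSeq on GRCm38.p6. Windows were matched for 28 of the 37 members. The core was found in 5 of the 7 fallen cytosolic genes with a window (Aars, Gars, Iars, Tars and Yars), in none of the 6 other cytosolic genes with a window, in none of 13 mitochondrial genes and in neither scaffold gene. Over all genes with a window, 4.51% held it (1219 of 27025). Mars and Sars had windows without it, and Cars had no window. Only 1 of the 3 risen cytosolic genes and 5 of the 9 that did not pass had a window. Hars, Wars, Lars, Nars, Rars and Vars were thus not searched, nor were Hars2 and Pars2. The E-box CAGATGG, a form bound by Neurod1, was found in the windows of none of the 28 members (6.02% of all genes, either strand), so the motifs did not overlap in any member. A match is a description of the letters and shows no binding, and its absence says only that these letters are not in the window.

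The matches of 4 genes are shown because, among the members with a window, only genes that fell held one. Each run is 30 bases, read along the strand of the gene, with the match in capitals. The run of Gars is at chr6:55037960-55037989 (plus strand), with the match 30 bases before the start, and that of Iars at chr13:49682126-49682155 (plus), 7 bases after it. The run of Tars is at chr15:11399655-11399684 (minus), 15 bases before the start, and that of Yars at chr4:129189895-129189924 (plus), 3 bases after it. Positions are on GRCm38.p6, while the counts were made on mm9.
Gars: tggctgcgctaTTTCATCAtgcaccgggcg
Iars: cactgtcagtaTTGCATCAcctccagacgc
Tars: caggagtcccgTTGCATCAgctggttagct
Yars: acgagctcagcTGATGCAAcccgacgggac

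In 3 of these 4 matches the element lies in the orientation TTNCATCA, and only that of Yars reads TGATGCAA along the gene. For a longer view, the 250 bases before the start are given for Tars (chr15:11399659-11399908, minus strand), where the match lies close to the start.
Tars promoter: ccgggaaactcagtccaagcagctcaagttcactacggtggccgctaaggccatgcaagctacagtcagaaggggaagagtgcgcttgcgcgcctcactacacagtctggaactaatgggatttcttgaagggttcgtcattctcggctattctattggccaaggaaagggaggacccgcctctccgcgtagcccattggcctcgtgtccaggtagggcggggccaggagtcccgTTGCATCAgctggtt

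A list of genes known for the Atf4 response was read from the same fit. Of 28 genes listed, 17 fell, 1 rose and 10 did not pass, which is 60.7% lower and 3.57% higher beside 12.6% and 11.8% of all genes. The median log2 fold change was -0.81 beside -0.01 over all genes. The list was drawn up with earlier results of these data known. Atf4 protein and its binding were not measured, and whether Atf4 had a part in these falls or in those of the synthetases was not tested. Vldlr, a lipoprotein receptor, fell from 81.7, 87.7 and 65.6 CPM in control libraries 7, 10 and 16 to 25.9, 25.3 and 27.2 CPM in knockout libraries 4, 5 and 6 (-1.59, SE 0.11, adjusted p = 4.3e-05 by edgeR). Mthfd2, a mitochondrial one-carbon enzyme, fell from 89.4, 73.9 and 62.9 to 29.6, 25.0 and 27.1 CPM (-1.47, SE 0.13), and Eif4ebp1, an inhibitor of the cap-binding factor eIF4E, from 22.8, 18 and 13.8 to 5.34, 5.16 and 5.62 CPM (-1.76, SE 0.19). For each of these 3 genes every control library lay above every knockout library. Their log2 falls were larger than those of any synthetase.

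Atf4 mRNA itself, named as the head of the list after its value was seen, stood at 287, 251 and 298 CPM in the controls and 225, 202 and 224 CPM in the knockouts (-0.36, SE 0.09, adjusted p = 0.019 by edgeR). That call was lost on leaving out knockout 5, control 7 or control 16 (adjusted p up to 0.0638 by edgeR). Chac1, Trib3 and Asns, chosen after their values were seen, also carry the element in their windows. Chac1, a glutathione-degrading enzyme, differed by -2.27 (SE 0.33), Trib3, a pseudokinase, by -2.00 (SE 0.31) and Asns, the asparagine synthetase that makes the free amino acid, by -1.01 (SE 0.14), and all 3 passed by edgeR. With the acinar covariate their values were -1.58, -1.43 and -0.80, and all 3 missed the threshold (adjusted p of 0.0707, 0.0896 and 0.0673 by edgeR). The only gene of the list called higher was Slc3a2, the heavy chain of amino acid exchangers (0.33, SE 0.10, adjusted p = 0.048 by edgeR), also named after its value was seen. That call was lost under 7 of 14 alternatives (adjusted p up to 0.172 by edgeR), and the groups overlapped. Slc7a11, the cystine transporter that pairs with it, had the highest value of the list and was not called. It stood at 3.15, 4.76 and 0.755 CPM in the controls and 7.06, 5.70 and 9.56 CPM in the knockouts, with no overlap (1.33, adjusted p = 0.133 by edgeR). The element was found in 8 of the 26 listed genes with a window. Of these 8, Asns, Chac1, Pycr1, Trib3 and Vldlr fell, and Atf3 (-0.43), Nupr1 (-1.73) and Slc7a11, which holds 2 matches, did not pass. The E-box CAGATGG was found in 1 of the 26, Trib3. Once acinar marker level entered the fit, 6 genes of the list fell and 0 rose, and the median was -0.60. Vldlr (-1.35), Mthfd2 (-1.29) and Eif4ebp1 were among those still called. Chac1 had 46.8, 29.3 and 20.9 CPM in controls 7, 10 and 16, the same order as their acinar shares. Knockouts 4, 5 and 6 had 6.45, 5.70 and 8.11 CPM, with the lowest Chac1 in library 5, whose acinar share was the highest of the knockouts and like that of control 16. The part of acinar RNA in these values was not tested beyond the covariate.
Chac1, chr2:119351038-119351067 (plus): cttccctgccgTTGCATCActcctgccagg
Trib3, chr2:152344028-152344057 (minus): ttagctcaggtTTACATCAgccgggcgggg
Asns, chr6:7693214-7693243 (minus): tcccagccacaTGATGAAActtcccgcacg

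**Figure D3:**
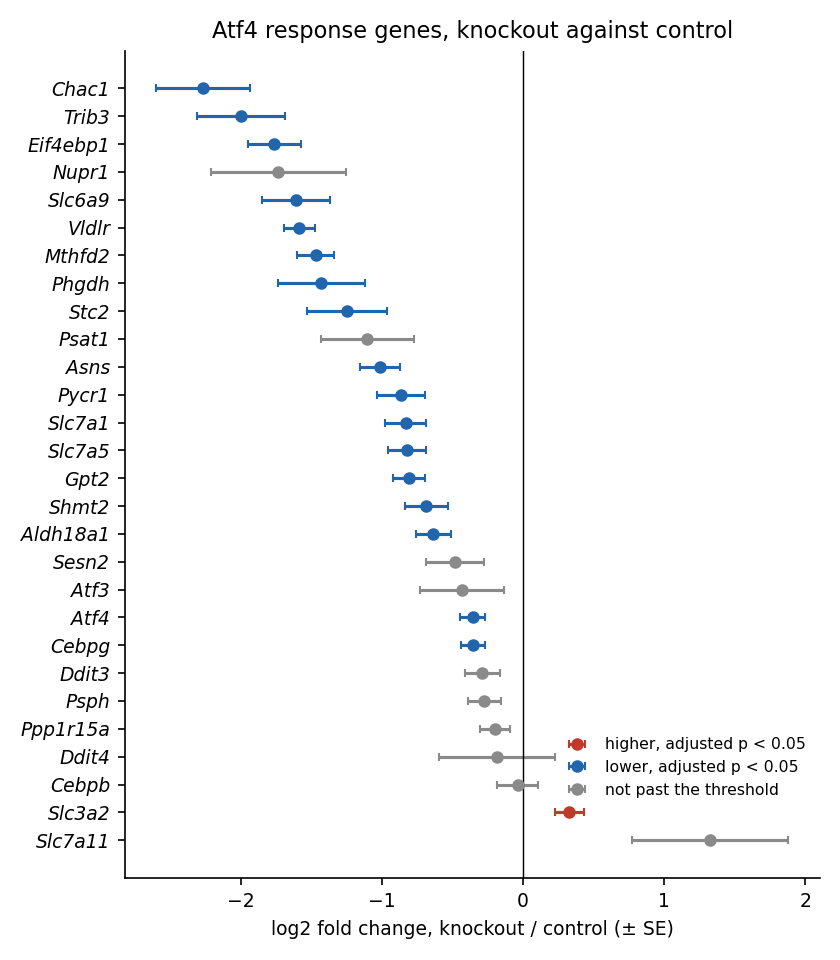
Log2 fold change of knockout over control for the 28 Atf4 response genes, ordered by value; points are edgeR estimates, bars are the SE, and colour marks the call at an adjusted p of 0.05. Blue points run from Chac1 at -2.27 to Cebpg at -0.35, and Slc3a2 at 0.33 is the single red point.

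Of 8 genes for the kinases that phosphorylate eIF2 and their partners, 2 fell, 1 rose and 5 did not pass, beside 12.6% lower and 11.8% higher over all genes. Impact, an inhibitor of the amino acid sensing kinase Gcn2, fell from 109 ± 6.37 to 76.2 ± 7.04 CPM (SD, n = 3 each, -0.52, SE 0.08), and Eif2ak4, which encodes Gcn2, from 40.5 ± 4.45 to 30.8 ± 1.30 CPM (-0.39, SE 0.09). Eif2ak4 missed the threshold with the acinar covariate and on leaving out knockout 5, control 7 or control 10 (adjusted p up to 0.286 by edgeR). Eif2ak1, the heme-regulated kinase, rose from 45.7 ± 3.0 to 57.8 ± 0.984 CPM (0.34, SE 0.07). It shares 487 exonic bases with Aimp2 on the opposite strand.

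The cytosolic members were also read by whether they belong to the multisynthetase complex. In the multisynthetase complex, which joins 8 of the listed synthetases to Aimp1 and Aimp2, 2 of 10 genes fell (Iars and Mars), 1 rose (Dars) and 7 did not pass, with a median of 0.09. That is 30% called, near the 24.4% of all genes. Of the 12 cytosolic genes outside it, 6 fell, 2 rose and 4 did not pass (66.7% called), with a median of -0.17. The difference between these counts was not tested. With the acinar covariate 0 genes of the complex fell and 2 outside it did. On leaving out knockout 5, knockout 6 or control 10, 1 gene of the complex fell, and on leaving out control 16, 3 did. Upper-quartile factors, no scaling factors and DESeq2 also gave 3. Another scaffold gene, Eef1e1, rose from 10.1 ± 0.477 to 13.1 ± 0.878 CPM (SD, n = 3 each, 0.37, SE 0.11, adjusted p = 0.0393 by edgeR), but missed the threshold whichever library was left out. Aimp1 had 30.3, 31.9 and 32.7 CPM in the controls and 35.4, 27.6 and 30.4 CPM in the knockouts (-0.02, SE 0.10), and Aimp2 had 15.2, 13.2 and 17.0 CPM and 15.9, 16.7 and 17.1 CPM (0.13, SE 0.12). Both overlapped between groups.

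Of the mitochondrial enzymes Aars2, which charges with alanine, changed most clearly. It had 14.1, 13.8 and 14.3 CPM in control libraries 7, 10 and 16 and 9.27, 10.3 and 9.56 CPM in knockout libraries 4, 5 and 6 (log2 fold change -0.54, SE 0.10, adjusted p = 0.00702 by edgeR). Hars2, the histidine enzyme, had 45.1, 46.1 and 48.3 CPM in the controls and 38.9, 38.2 and 41.9 CPM in the knockouts (-0.23, SE 0.07, adjusted p = 0.0444 by edgeR). Rars2, the arginine enzyme, had 30.4, 26.7 and 34.4 CPM in the controls and 36.7, 41.7 and 37.6 CPM in the knockouts (0.35, SE 0.10, adjusted p = 0.0422 by edgeR). Both calls were close to the threshold. Hars2 missed it under 11 of 14 alternatives, each left-out library and DESeq2 among them (adjusted p up to 0.145), and Rars2 under 7, which leave out each knockout, control 7 or control 10 among others (adjusted p up to 0.316).

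Of the 12 mitochondrial genes that did not pass, Lars2 is given below. For the other 11 the log2 fold changes ran from -0.24 (Nars2, asparagine) to 0.29 (Sars2, serine). Iars2, the isoleucine enzyme and the most abundant after Lars2, had 59.8, 61.2 and 63.6 CPM in the controls and 60.3, 57.2 and 62.3 CPM in the knockouts (-0.04, SE 0.07). It shares 2034 exonic bases with Rab3gap2 on the opposite strand, so without strand part of its reads cannot be told apart. Pars2, Fars2 and Yars2, for proline, phenylalanine and tyrosine, had values of 0.24, 0.22 and 0.13. Mars2, Cars2 and Ears2, for methionine, cysteine and glutamate, had 0.04, 0.03 and 0.02, and Tars2 and Wars2, for threonine and tryptophan, had -0.07 and -0.12. Mars2 was the least counted member, with as few as 51 counts in a library and an SE of 0.23. The summed level of the 14 genes without Lars2 was 306 ± 13.9 CPM in the controls (SD, n = 3), and the knockouts had 304 ± 7.40 CPM (SD, n = 3).

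Where the cytosol and the mitochondrion have an enzyme each for the same amino acid, the changes of the partners were set side by side. Both partners passed in 2 of 15 pairs. Aars and Aars2 both fell, by 0.59 and 0.54 on the log2 scale. Hars rose and Hars2 fell, and the ratio of Hars to Hars2 CPM was 0.955, 0.804 and 0.840 in controls 7, 10 and 16, and knockouts 4, 5 and 6 had 1.54, 1.54 and 1.27. The ratios did not overlap, and the two-sided exact permutation test gave p = 0.1, the smallest that 3 libraries against 3 allow. The ratio of Wars to Wars2 rose from 8.11, 8.77 and 7.95 to 13.2, 14.7 and 16.3, and that of Cars to Cars2 fell from 4.75, 4.49 and 3.92 to 2.92, 2.27 and 2.35, each with the same p = 0.1 by that exact test, unadjusted among 15 such tests. In all, the ratios of 10 of the 15 pairs did not overlap and gave this smallest p, so the test does not single these 3 out. Ratios of other gene pairs were not computed, so this count has no background share. Most of the 10 pairs hold a member called on these same libraries, so their separation is no separate support. Among single genes, 42% of all tested had groups apart. Eprs was paired with both Ears2 and Pars2, and Farsa alone with Fars2, so the pairs are not all separate. Hars and Hars2 lie on opposite strands and share 195 exonic bases, so without strand part of their reads cannot be told apart.

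Lars2 had the most counts of all members and the widest SE. It had 1408, 2988 and 1546 CPM in control libraries 7, 10 and 16 and 3808, 1723 and 4852 CPM in knockout libraries 4, 5 and 6, and the groups overlapped. The log2 fold change was 0.81 (SE 0.50, adjusted p = 0.303 by edgeR), not past the threshold. On leaving out knockout 6 it was 0.49 and on leaving out control 10 it was 1.23, and neither passed the threshold. It made up between 82.5% and 94.1% of the summed level of the 15 mitochondrial genes. The ribosomal RNA precursor Rn45s, named because its highest values lay in the same libraries as those of Lars2, had 4007, 16929 and 6305 CPM in the controls and 25893, 3276 and 35077 CPM in the knockouts. The 3 libraries with the most Lars2 (knockout 6, knockout 4 and control 10) were the 3 with the most Rn45s, in the same order. Among the others the order differed, as knockout 5 had the least Rn45s but the most Lars2. Lars2 CPM per 100 CPM of Rn45s ran from 13.8 in knockout 6 to 52.6 in knockout 5. The part of ribosomal RNA in the Lars2 counts was not tested. Leaving both out of the table changed the call of Kars (now past the threshold) and of Hars2 (no longer past it) and of no other member.

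**Figure D4:**
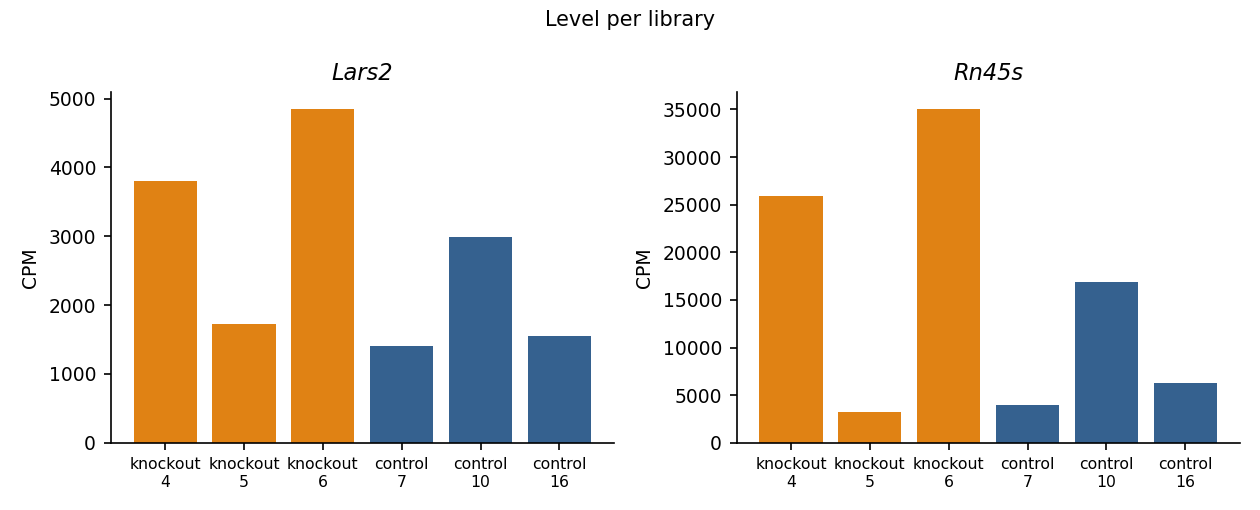
CPM of Lars2 (left) and of the ribosomal RNA precursor Rn45s (right) in each library, knockouts in orange and controls in blue; each bar is 1 library. Knockout libraries 4 and 6 and control library 10 are high in both panels, while knockout library 5 is low with control libraries 7 and 16.

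Other lists of the translation machinery gave the background for the synthetases. Of 12 cytosolic elongation and termination factors 2 rose, 1 fell and 9 did not pass. Eef1a2, an elongation factor that brings charged tRNA to the ribosome, fell from 53.4 ± 7.65 to 33.6 ± 2.36 CPM (SD, n = 3 each, -0.67, SE 0.11). Besides Eef1e1, Eif5a rose (0.27, SE 0.08), a call that was lost under 7 alternatives. Of 29 initiation factors and inhibitors 1 rose, 2 fell and 26 did not pass. Eif2s2, the beta subunit of eIF2, fell from 31.5 ± 1.93 to 23.8 ± 1.57 CPM (-0.40, SE 0.09), Eif4ebp1 is given above, and Eif1a rose by 0.25 (SE 0.08) but lost its call under 6 alternatives.

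Of 28 genes of tRNA processing and modification 2 fell, 1 rose and 25 did not pass. Xpot, which exports tRNA from the nucleus, fell from 98.4 ± 9.51 to 75.7 ± 2.21 CPM (SD, n = 3 each, -0.38, SE 0.08, adjusted p = 0.0101 by edgeR) and missed the threshold only with the acinar covariate. Ptrh2, a peptidyl-tRNA hydrolase (0.34, SE 0.10), and Gtpbp3, a mitochondrial tRNA modifier (-0.41, SE 0.13), lost their calls under 8 and 10 alternatives. Of 16 mitochondrial translation factors found, Lrpprc, an RNA-binding protein that stabilises mitochondrial mRNA, fell from 87.9 ± 2.64 to 62.7 ± 4.20 CPM (-0.49, SE 0.07, adjusted p = 0.00181 by edgeR) and 15 did not pass. The share called was 25%, 10.3%, 10.7% and 6.25% in the elongation, initiation, tRNA processing and mitochondrial translation lists, beside 24.4% of all genes.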

How the data were processed

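RNA was measured in 6 islet libraries, 3 per genotype. Deposited values are whole-number counts for each gene symbol, not scaled, as read from the values. Per the submitters' processing notes, build mm9 was used and the tools were TopHat2 2.1.0, DESeq, bcl2fastq 1.8.4 and Cufflinks 2.0.2. Counter, annotation and strand setting are stated in no source used here. The authors' deposited table holds size-factor scaled means (a signal), the fold (ratio), its log2 value and p-values.

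Counts were fitted in R 4.3.3 with edgeR 4.0.16 over all genes kept by filterByExpr (minimum count 10, total 15), with TMM factors of 0.988 to 1.021, robust dispersions, the quasi-likelihood F test and Benjamini-Hochberg adjustment over 14770 genes at 0.05. SEs come from the same fit. CPM is per 1e+06 counts with TMM-scaled library sizes. Limma 3.58.1 and DESeq2 1.42.0 served as alternatives. Replicate libraries differed beyond counting error (chi-square over its degrees of freedom, 16.9 to 44.2), so none was counted as a repeat, and p-values measure the spread between these libraries, which may be technical. Lists, members and tests were chosen with earlier results of these data known. Per-library values are given for members past the threshold and the 2 most abundant others of each class, and up to 3 called genes with the smallest p of each other list are named, with others marked in the text. The fit was also run on simulated counts with a common dispersion for all genes. The data differ in this, so that run does not measure the error rate here. GENCODE M21 and RefSeq served for lengths, overlaps and promoters on GRCm38. The promoter sequence of Aars is not reported here.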

Additional observations from a re-analysis of the deposited data

How the results depend on the processing

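The 14 alternatives were upper-quartile factors, no factors, DESeq2, limma-voom, no filter, no robust estimation, the acinar marker level as a covariate, each library left out, and, chosen after seeing the data, Rn45s and Lars2 left out of the table. No member reversed as a called value. With the acinar covariate, 927 genes were higher and 787 lower, 2 cytosolic synthetases were lower (median -0.11), 0 mitochondrial genes were higher and 0 lower (median -0.10), and of the Atf4 response genes 0 were higher and 6 lower (median -0.60). Otherwise 0 mitochondrial genes were higher with upper-quartile factors, and 1 was lower with no factors, DESeq2, no filter or without Rn45s and Lars2, while 0 Atf4 response genes were higher with upper-quartile factors or no robust estimation and 2 with DESeq2. The cause of these changes was not tested. With 1 library left out, 1153 to 1590 genes were higher and 1225 to 1433 lower, both lowest without control library 10. The cytosolic genes then had 3 higher and 6 to 9 lower (median -0.05 to 0.04), the mitochondrial genes 0 to 1 higher and 1 lower (-0.02 to 0.09), and the Atf4 response genes 0 to 1 higher and 13 to 18 lower (-0.89 to -0.65, nearest to 0 without control library 7). No paired analysis was possible because the groups share no replicate number. With 3 libraries per group, depth limits least the cytosolic genes (at least 495 counts per library) and most Mars2 (51).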
